A study of Mus musculus with 6 samples.

Results

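The genes described here are 9 members of a linked pair of families, the transient receptor potential canonical (TRPC) channels Trpc1, Trpc4, Trpc5, Trpc6 and Trpc7 and the phospholipase C beta enzymes Plcb1, Plcb2, Plcb3 and Plcb4, out of 24060 genes in the deposited table. They were taken by gene symbol. Their read counts were compared between retinal ganglion cells (RGCs), the neurons whose axons form the optic nerve, from 3 embryonic (E18) and 3 early postnatal (P5) samples of C57BL/6 mice, with no treatment or allele labelled at either age. The cells came from retinas digested with papain, were cleared of macrophages with an antibody, and were then held on dishes by an antibody against CD90 (Thy1). The labels number the samples 1, 3 and 4 at E18 and 6, 8 and 9 at P5, and the study used mice of either sex. The sources used here do not give the sex or number of mice behind each sample, or say whether the samples came from separate litters, so the spread between samples may be partly technical. The study made this comparison because RGCs grow axons readily at E18 and have lost much of that capacity by P5. The 9 genes were picked with their E18 and P5 values known. Their differences between the ages are therefore given as a description, with standard errors and without a test.

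TRPC channels are tetrameric cation channels of the plasma membrane that pass sodium and calcium, and they open downstream of receptors that activate phospholipase C. Such receptors act through the Gq family of G proteins, whose alpha subunits switch on phospholipase C beta, which splits the membrane lipid PIP2 into IP3, a releaser of calcium from the endoplasmic reticulum, and diacylglycerol. Diacylglycerol opens Trpc6 and Trpc7, Trpc4 and Trpc5 form a pair of close relatives, and Trpc1 mostly joins other TRPC subunits. In the retina this cascade is best known from the intrinsically photosensitive RGCs, where the photopigment melanopsin (Opn4) signals through a Gq protein and Plcb4 to channels of Trpc6 and Trpc7.

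The samples had 81213639 to 114512853 reads counted on genes. Values are given as CPM, counts scaled to a common library size after TMM normalization, a scaling that aligns the bulk of the genes between samples. Of 16449 genes that passed edgeR's expression filter, 43.4% passed an adjusted p of 0.05 in its quasi-likelihood test, 20.8% as higher at E18 and 22.5% as higher at P5. RGC markers were abundant at both ages, with a summed level of 11100 to 12700 CPM over 16 genes at E18 and 11100 to 12000 CPM at P5. Single markers differed, as 5 of the 16 passed as higher at E18 and 5 as higher at P5. Thy1, the target of the capture antibody, had 212 to 312 CPM at E18 and 469 to 690 CPM at P5 (adjusted p = 0.00197 in edgeR). Amacrine markers summed to 638 to 960 CPM at E18 and 528 to 653 CPM at P5. Most of this came from Pax6, with 661, 751 and 622 CPM in E18 replicates 1, 3 and 4 and 498 to 629 CPM at P5. Of the 10 tested, 5 passed as higher at E18 and 0 as lower, and Pax6 did not pass (adjusted p = 0.0601 in edgeR). The E18 samples were uneven in genes of other cells. Gad1, which makes GABA in amacrine cells, had 19.2, 35.1 and 0.486 CPM in E18 replicates 1, 3 and 4, and 14 genes of dividing cells summed to 368, 146 and 87.9 CPM, against 68.1 to 86.1 CPM at P5. The photoreceptor gene Rcvrn and the endothelial gene Cdh5 were at most at 0.0609 CPM, and the bipolar gene Grm6 was at most at 0.0362 CPM. In bulk RNA a lower level in every cell cannot be told apart from fewer cells that express a gene.

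All 9 genes passed the filter. In 8 of them, every P5 sample lay above every E18 sample, against 28.5% of all genes tested, and in 1, Plcb3, every E18 sample lay above every P5 sample, against 27.6%. No gene of the 9 overlapped between the ages, against 56.1% of all genes tested without overlap in either direction. Since the genes were picked on this comparison, nothing is read from these shares. The median log2 fold change of E18 over P5 was -1.68 over the 9 genes, -1.81 over the 5 channels and -1.16 over the 4 enzymes, and 0.0047 over all genes tested. Plcb2 passed the filter through the P5 samples, with 3 of 3 above the minimum of 0.108 CPM and 1 of 3 at E18, and so it could enter only by being higher at P5. The median over the 9 genes is the value of Plcb2 itself, and that over the enzymes rests on it in part.

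**Figure D1:**
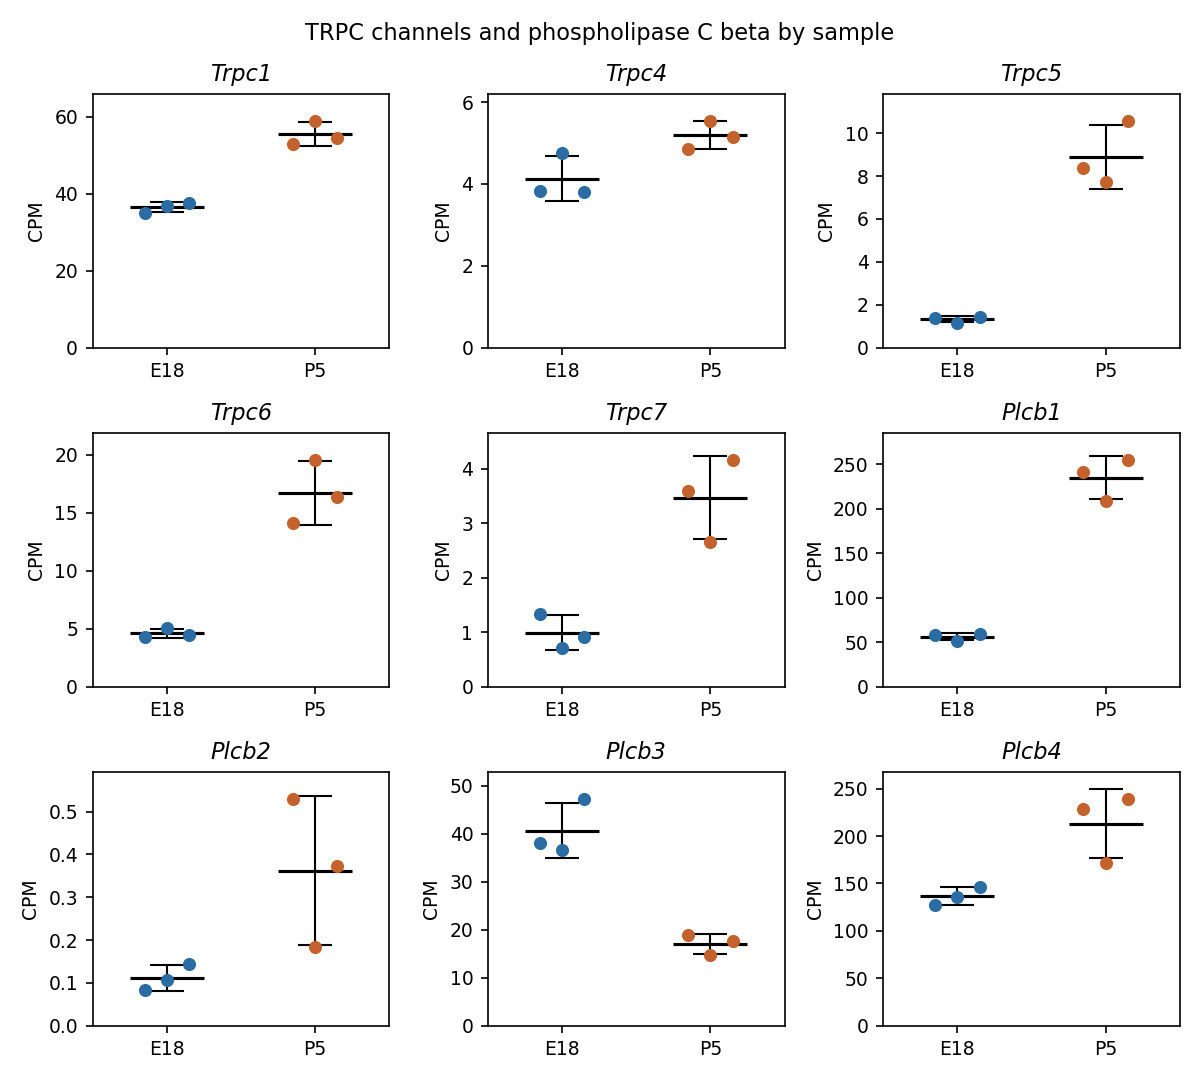
Each panel plots the level of 1 gene in CPM on a linear axis from 0, with E18 on the left and P5 on the right. Points are single samples, horizontal lines are means and error bars are the SD (n = 3). Plcb3 is the panel in which the E18 points lie above the P5 points.

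Of the 5 channels, Trpc1 had the highest level per kilobase at both ages. Its protein mostly serves as a partner subunit. Trpc1 (NM_011643, chromosome 9 of mm10, 95705082 to 95750375, minus strand) had 35.0, 36.8 and 37.6 CPM in E18 replicates 1, 3 and 4 and 53.0, 58.9 and 54.5 CPM in P5 replicates 6, 8 and 9. The P5 samples were all higher and both ages were tight, with a mean of 36.5 ± 1.33 CPM (SD, n = 3) at E18 and 55.5 ± 3.08 CPM (SD, n = 3) at P5. The log2 fold change of E18 over P5 was -0.61 (standard error 0.0904), a level 1.52-fold higher at P5.

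Trpc6 (NM_013838, chromosome 9, 8544142 to 8680741, plus strand), a channel gated by diacylglycerol, had 4.32, 5.07 and 4.46 CPM in the E18 samples in the same order. At P5 it had 14.1, 19.6 and 16.4 CPM, so that the lowest P5 value was well above the highest E18 value. Its log2 fold change was -1.85 (standard error 0.159), or 3.61-fold higher at P5.

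Trpc7 (NM_012035, chromosome 13, 56773113 to 56895993, minus strand), a close relative of Trpc6, was low, with 1.34, 0.714 and 0.917 CPM at E18, which are 111, 80 and 83 reads. At P5 it had 3.60, 2.65 and 4.17 CPM, from 319, 261 and 392 reads. The groups did not overlap, but the samples of each age differed more than those of the other channels, with a coefficient of variation of 32.2% at E18 and 22.1% at P5. The log2 fold change was -1.81 (standard error 0.294), or 3.52-fold higher at P5.

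Trpc5 (NM_009428, chromosome X, 144381671 to 144688180, minus strand), a channel found in the growth cones of cultured neurons, showed the widest relative gap of the 9 genes. It had 1.40, 1.17 and 1.44 CPM at E18 and 8.38, 7.73 and 10.6 CPM at P5. The log2 fold change was -2.74 (standard error 0.197), a 6.67-fold higher level at P5, and the lowest P5 sample stood 6.29 CPM above the highest E18 sample.

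Trpc4 (NR_046161 in the table, a non-coding transcript record, chromosome 3, 54156035 to 54318471, plus strand), its near relative, was almost level between the ages. It had 3.82, 4.76 and 3.81 CPM at E18 and 4.86, 5.55 and 5.16 CPM at P5. The samples did not overlap, but the highest E18 sample, replicate 3, lay only 0.0989 CPM below the lowest P5 sample, and the log2 fold change of -0.33 had a standard error of 0.171. The pair Trpc4 and Trpc5 thus differed in how far apart the ages lay, by 1.26-fold against 6.67-fold. This difference between the pair was not tested.

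Trpc2, which serves the vomeronasal organ and was not among the 9 genes, had 0 counts in all 6 samples, which allows at most 0.0369 CPM in any of them from a limit of 3 counts, for counting error alone.

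Among the enzymes, Plcb4 and Plcb1 had the highest levels per kilobase at P5. Plcb1 (NM_019677, chromosome 2, 134786067 to 135475258, plus strand), the main isoform of the forebrain, had 57.8, 51.4 and 59.4 CPM at E18 and 241, 209 and 255 CPM at P5. The ages were separated by 149 CPM between the nearest samples. The log2 fold change was -2.06 (standard error 0.109), or 4.18-fold higher at P5.

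Plcb4 (NM_013829, chromosome 2, 135659011 to 136014593, plus strand), the isoform tied to retina and cerebellum, lies 183752 bases beyond the end of Plcb1 on the same strand. It had 127, 136 and 146 CPM at E18 and 229, 171 and 239 CPM at P5. P5 replicate 8 was the lowest of its age but still 24.9 CPM above the highest E18 sample. The log2 fold change was -0.64 (standard error 0.133), or 1.56-fold higher at P5, and without P5 replicate 8 it was -0.80.

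Plcb3 (NM_008874, chromosome 19, 6952325 to 6976470, minus strand), a widely expressed isoform, was the exception. It had 38.0, 36.7 and 47.3 CPM at E18 and 18.9, 14.7 and 17.5 CPM at P5. Every E18 sample was higher, by 17.8 CPM between the nearest samples, and the log2 fold change was 1.25 (standard error 0.141), or 2.39-fold higher at E18. It was 1.31, 1.33 and 1.13 without E18 replicates 1, 3 and 4. The summed level of dividing-cell genes, 368, 146 and 87.9 CPM in these samples, was also higher at E18 than at P5, and its part in the level of Plcb3 was not tested.

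Plcb2 (NM_177568, chromosome 2, 118707517 to 118728438, minus strand), the isoform of blood and taste cells, was close to the limit of detection, with 7, 12 and 13 reads at E18 and 47, 18 and 35 reads at P5. These are 0.0844, 0.107 and 0.144 CPM at E18 and 0.530, 0.183 and 0.372 CPM at P5. The samples did not overlap, but P5 replicate 8 came within 0.0393 CPM of the highest E18 sample. Its log2 fold change was -1.68 with a standard error of 0.472, the widest of the 9. Microglial markers summed to 19.5 to 22.0 CPM over 11 genes at E18 and to 24.0 to 33.9 CPM at P5. Their part in the level of Plcb2 was not tested.

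**Figure D2:**
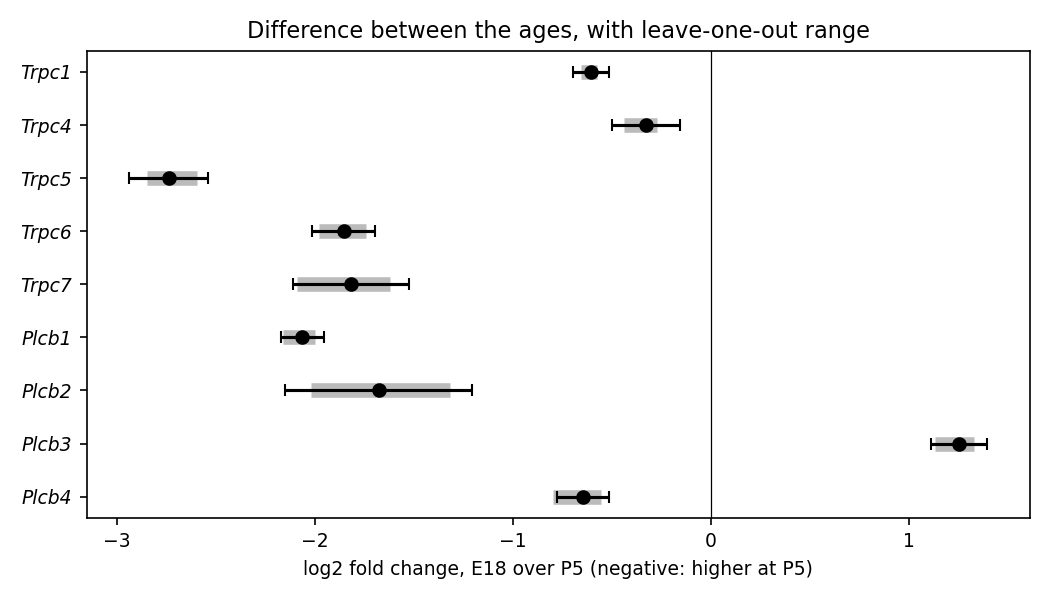
Points show the log2 fold change of E18 over P5 for each gene, with error bars of 1 standard error from the edgeR fit. Grey bars span the values obtained with 1 sample omitted. Plcb3 alone lies right of 0, at 1.25.

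Reads of 1 gene could be miscounted on a relative or on an overlapping gene. No stretch of 100 bases, the read length, was identical between the annotated transcripts of any 2 of the 9 genes, over 36 pairs, while 6 pairs shared stretches of 31 bases. Exons of other annotated genes covered 22 bases of Plcb3 (0.316% of its exons, from the gene Ppp1r14b on the opposite strand, which had up to 10496 reads in a sample) and 178 bases of Plcb1 (1.60%, from the antisense gene 9630028H03Rik, which had at most 7 reads in a sample). Whether reads were counted by strand was not given in the sources used here, so reads in these shared bases cannot be told apart.

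The promoters of 3 of these genes are shown, since Trpc5 had the largest fold difference among the channels, Trpc6 is a diacylglycerol-gated channel that was higher at P5, and Plcb3 was the gene higher at E18. Each is the 250 bases before the RefSeq start site in GRCm38.p6, read on the strand of the gene, and none of these bases lies in a GENCODE exon of the same gene. The RefSeq start of Plcb3 lies inside the longer GENCODE gene, so its window is in an intron of the longest form. They are chrX:144688181-144688430 on the minus strand for Trpc5, chr9:8543892-8544141 on the plus strand for Trpc6 and chr19:6969815-6970064 on the minus strand for Plcb3. Capitals mark the GC box, GGGCGG on either strand.
Trpc5: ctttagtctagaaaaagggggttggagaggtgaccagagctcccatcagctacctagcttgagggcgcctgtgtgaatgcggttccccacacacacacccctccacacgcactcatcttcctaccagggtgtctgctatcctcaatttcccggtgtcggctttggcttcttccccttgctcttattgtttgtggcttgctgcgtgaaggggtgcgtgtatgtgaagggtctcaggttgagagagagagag
Trpc6: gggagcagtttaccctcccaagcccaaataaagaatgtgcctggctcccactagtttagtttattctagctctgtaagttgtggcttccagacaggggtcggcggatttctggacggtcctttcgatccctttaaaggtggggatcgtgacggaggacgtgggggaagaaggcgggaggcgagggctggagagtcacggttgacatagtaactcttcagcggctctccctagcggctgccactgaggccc
Plcb3: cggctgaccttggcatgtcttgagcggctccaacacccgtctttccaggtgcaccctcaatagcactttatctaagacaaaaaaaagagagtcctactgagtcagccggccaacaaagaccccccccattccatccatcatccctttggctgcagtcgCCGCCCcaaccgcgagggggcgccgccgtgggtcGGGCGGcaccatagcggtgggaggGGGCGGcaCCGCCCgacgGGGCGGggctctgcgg
The GC box occurred 5 times before Plcb3 and was not found before Trpc5 or Trpc6. All 9 genes had a promoter in the RefSeq table, and 5 of the 9 held a GC box (Plcb1, Plcb3, Plcb4, Trpc1 and Trpc4), a motif found in 32.7% of 32851 promoters. The letters of a CCAAT box (CCAAT), of a cAMP response element (TGACGTCA) and of an E-box (CACGTG) were in none of the 10 windows of these genes, against 33.8%, 1.55% and 6.02% of all promoters. The letters of a TATA box (TATAAA) were in the window of Trpc4, against 12.4% of all promoters. They lay on the opposite strand, near the end of the window farthest from the start site. The core of Ets factors such as Elk-1 (CGGAAG) was in the window of Plcb2, against 13.6%. Both strands were searched, and matches of different motifs were allowed to overlap. GC content was 54.4% before Trpc5, 56.4% before Trpc6 and 64.4% before Plcb3, with a median of 52.4% over all promoters. Those with a GC box included Plcb1, 4.18-fold higher at P5, and Trpc4, 1.26-fold higher.

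Levels of different genes can be compared only per length. Divided by the kilobases of merged exons, Plcb1, Plcb3 and Plcb4 stood above most channels at both ages, and Plcb2 was the lowest of the 9 genes. At E18 the order was Plcb4 at 15.2 ± 1.07 CPM per kilobase (SD, n = 3), Plcb3 at 5.84 ± 0.830, Plcb1 at 5.06 ± 0.381, Trpc1 at 4.54 ± 0.166, Trpc6 at 0.911 ± 0.0785, Trpc4 at 0.514 ± 0.0681, Trpc5 at 0.266 ± 0.0289, Trpc7 at 0.255 ± 0.0821 and Plcb2 at 0.0169 ± 0.00453. The samples of Plcb3 and Plcb1, of Plcb1 and Trpc1 and of Trpc5 and Trpc7 overlapped between samples, although within each E18 sample Plcb3 lay above Plcb1 and Plcb1 above Trpc1 by this length. At P5 the order was Plcb4 at 23.8 ± 4.10 CPM per kilobase, Plcb1 at 21.1 ± 2.14, Trpc1 at 6.91 ± 0.384, Trpc6 at 3.29 ± 0.546, Plcb3 at 2.45 ± 0.307, Trpc5 at 1.77 ± 0.298, Trpc7 at 0.895 ± 0.197, Trpc4 at 0.646 ± 0.0428 and Plcb2 at 0.0548 ± 0.0264. Plcb4 with Plcb1 and Trpc7 with Trpc4 overlapped at P5. By merged exons, Plcb3 lay above Trpc1 and Trpc6 in every E18 sample and below both in every P5 sample. With the length of the longest transcript instead, Plcb1 and Trpc1 traded places at E18 and Trpc7 and Trpc4 at P5. Plcb3 then also lay just below Trpc1 in E18 replicate 3, where they had 36.7 and 36.8 CPM over 4558 and 4559 bases.

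The make-up of each family differed between the ages. Of the summed level per kilobase of the 4 enzymes, Plcb1 made up 18.5% to 21.0% at E18 and 43.4% to 46.9% at P5, whereas Plcb3 gave 21.0% to 23.9% and then 4.83% to 5.42%. The ratio of Plcb1 to Plcb3 per kilobase was 0.787 to 0.953 at E18 and 8.00 to 9.10 at P5. Plcb4 held the largest share at both ages, at 57.0% to 60.5% and 47.7% to 51.1%. The summed level of the enzymes was 26.1 ± 2.03 CPM per kilobase in E18 samples, against 47.4 ± 6.52 in P5 samples (SD, n = 3). A ratio within a sample does not depend on how the samples were scaled to each other.

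Among the 5 channels, Trpc1 gave 69.1% to 71.4% of the summed level per kilobase at E18 and 49.0% to 52.4% at P5. Trpc6 held the next largest share, with 13.4% to 15.2% at E18 and 22.1% to 27.4% at P5. The ratio of Trpc1 to Trpc6 per kilobase was 4.59 to 5.31 at E18 and 1.90 to 2.37 at P5. Trpc5 had a share of 3.53% to 4.42% at E18 and 10.9% to 15.2% at P5, and Trpc4, its near relative, one of 7.23% to 8.99% and 4.64% to 4.89%. This pair thus traded order between the ages. The share of Trpc7 was 2.79% to 5.47% and 4.84% to 7.76%, which overlapped. The summed level of the 5 channels was 6.49 ± 0.155 CPM per kilobase in E18 samples, against 13.5 ± 0.820 in P5 samples (SD, n = 3).

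**Figure D3:**
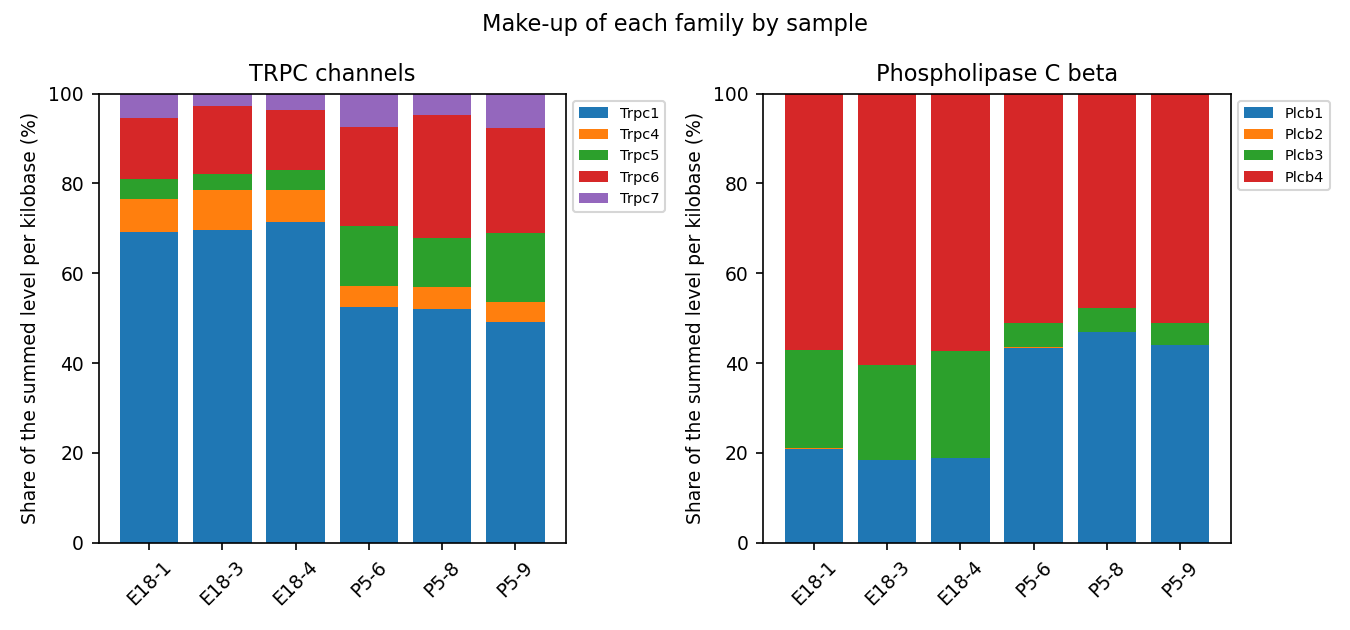
Stacked bars give the share of each gene, in percent, in the summed level per kilobase of its family, for the 5 TRPC channels on the left and for phospholipase C beta on the right. Each bar is 1 sample. Trpc1 lies at 69.1% to 71.4% at E18 and 49.0% to 52.4% at P5, and Plcb1 at 18.5% to 21.0% and 43.4% to 46.9%.

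The melanopsin cascade joins several of these genes to a named cell type. Opn4 had 8.87, 4.77 and 5.84 CPM at E18 and 22.5, 16.2 and 29.2 CPM at P5, and it was lower at E18 (log2 fold change -1.80, with an adjusted p of 0.00144 in edgeR). Of 6 marker genes of intrinsically photosensitive RGCs, 5 were lower at E18 by the same test (Opn4, Eomes, Adcyap1, Tbx20 and Igf1), against 22.5% of all genes tested. The list was written with earlier results of these data known, so nothing is read from this count or from the adjusted p of Opn4. The 6 markers summed to 150 to 188 CPM at E18 and 306 to 442 CPM at P5. Igf1 made up most of that sum. The part of this cell type in the levels of Trpc6, Trpc7 and Plcb4 was not tested.

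Of the 8 genes that averaged 1 CPM or more, Trpc7 followed Opn4 most closely over the samples. The root mean square difference between their log2 CPM profiles, each centred on its own mean over the 6 samples, was 0.0657, which made Opn4 the nearest of 9720 genes with at least 10 CPM. Within each age the samples also stood in the same order, with E18 replicate 1 above replicates 4 and 3 and P5 replicate 9 above replicates 6 and 8. The P5 order was not particular to Trpc7 and Opn4. Trpc5, Plcb1 and Plcb4 shared it, though not the E18 order. When each age was centred on its own mean, a step added after the profiles were seen, the difference was 0.0652 against a spread of 0.324 in Trpc7 itself, and Opn4 was at position 2 of 9720. For Trpc6 the same difference was 0.475 (position 9635) against a spread of 0.154, and for Plcb4 0.325 (position 8828) against 0.163. The points are 6 libraries that share their depth and cell makeup, and Trpc7 rests on as few as 80 reads, so this is a description of these samples. Counting error alone at such read numbers can exceed a difference of 0.0652. Neither the small size of that difference nor the position of Opn4 can therefore be relied on.

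**Figure D4:**
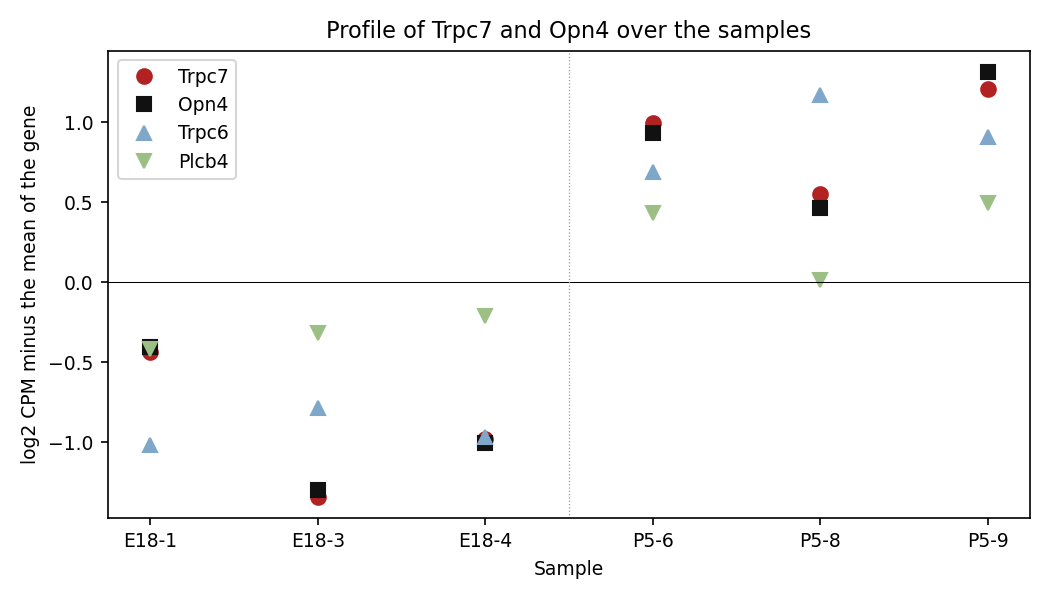
The log2 CPM of Trpc7, Opn4, Trpc6 and Plcb4 in each sample, after the mean of each gene over the 6 samples was subtracted, with E18 samples left of the dotted line. Circles of Trpc7 and squares of Opn4 nearly coincide in every sample, with a root mean square difference of 0.0657.

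The other genes of the pathway were counted from lists of 126 genes, all present in the table, of which 121 had enough reads to be tested. In the edgeR fit over the whole table, 62 of these (51.2%) were lower at E18 and 15 (12.4%) were higher, while 44 did not pass. The shares over all genes tested were 22.5% and 20.8%. The lists were written with earlier results of these data known, so nothing is read from the distance to these shares. The adjusted p values given below for single listed genes carry the same limit. The median log2 fold change of the listed genes was -0.40.

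Of the 4 alpha subunits that drive phospholipase C beta, 3 were lower at E18 and 1 did not pass the test. Gnaq, the founding member of the family, had 180, 191 and 186 CPM at E18 and 173, 196 and 167 CPM at P5, samples that overlapped (log2 fold change 0.06 with a standard error of 0.0909, and an adjusted p of 0.646 in edgeR). Gna11, its close relative, was lower at E18, with 63.6 ± 4.85 CPM against 114.9 ± 16.9 (SD, n = 3). The difference was -0.85 on the log2 scale, with an adjusted p of 0.00125 in edgeR. Gna14 and Gna15 were also lower at E18 but scarce, at 0.369 and 0.0431 CPM on average at E18 and 1.18 and 0.194 CPM at P5. Their adjusted p values in edgeR were 0.0103 and 0.0129, and the call of Gna15 was lost without E18 replicate 3 (adjusted p = 0.0648).

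Of 25 tested receptors that couple to Gq, 15 were lower and 3 were higher at E18. The widest differences were those of Trhr, the receptor of thyrotropin-releasing hormone, with 5, 2 and 1 reads at E18 and 1637, 1365 and 1850 reads at P5 (adjusted p = 1.12e-05 in edgeR), and of the muscarinic receptor Chrm5 (log2 fold change -2.82, adjusted p = 0.000614 in edgeR). The purine receptor P2ry1 and the thrombin receptor F2r were higher at E18, with log2 fold changes of 0.84 and 1.04 and adjusted p values of 0.00222 and 0.00417 in edgeR. The F2r samples lay at 59.3 to 67.3 CPM at E18 and at 20.8 to 39.0 CPM at P5, with no overlap.

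Regulators of Gq signalling include the RGS proteins, which speed up the switching off of the alpha subunit. Of 12 tested, 7 were lower and 2 were higher at E18. The widest of the lower ones were Rgs8 and Rgs5, with log2 fold changes of -1.34 and -4.36 (adjusted p = 0.000582 and 0.000166 in edgeR). Rgs5 is also a pericyte marker and reached 3.08 CPM at most. Rgs2 and Rgs3 were higher at E18 by 0.29 and 0.32 on the log2 scale (adjusted p = 0.0425 and 0.0303 in edgeR). The call of Rgs2 was lost without any 1 of the samples except P5 replicate 6 (0.0509 to 0.115), and that of Rgs3 without any E18 sample or P5 replicate 9 (0.0771 to 0.119).

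The remaining phospholipases C divided between the ages. Of 13 tested, 6 were lower and 3 were higher at E18. Plcg1, the isoform switched on by receptor tyrosine kinases, averaged 233 ± 7.16 CPM in E18 and 130.5 ± 22.9 CPM in P5 samples (SD, n = 3 each, log2 fold change 0.84, adjusted p = 0.00136 in edgeR). Plcl1, a relative without enzyme activity, was also higher at E18 (0.90, adjusted p = 0.00126), while Plcd3 and Plcd4 were lower (-1.23 and -1.28, adjusted p = 0.00315 and 0.00969, all in edgeR).

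Downstream of IP3, 12 of 18 genes tested were lower and 2 were higher at E18. Itpr1, the IP3 receptor of neurons, had 11.9, 10.4 and 9.55 CPM at E18 and 61.7, 36.4 and 90.5 CPM at P5. The P5 samples were spread widely but all lay above E18 (log2 fold change -2.56, standard error 0.292, adjusted p = 0.000477 in edgeR). Homer2, a scaffold that links receptors to IP3 receptors, was lower at E18 (-1.67, adjusted p = 7.72e-05 in edgeR). Homer3 and the IP3 kinase Itpkc were higher (0.67 and 0.47, adjusted p = 0.0330 and 0.0151 in edgeR). The call of Homer3 was lost without any 1 of the samples except P5 replicate 8 (0.0614 to 0.123), and that of Itpkc without E18 replicate 3 or P5 replicate 6 (0.0536 and 0.0559).

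Of 20 genes that act on diacylglycerol or are driven by it, 12 were lower and 1 was higher at E18. The diacylglycerol kinase Dgkg had 1.13 ± 0.476 CPM at E18 and 14.4 ± 6.14 at P5 (log2 fold change -3.68, adjusted p = 0.000422 in edgeR). The lipase Mgll, which degrades the cannabinoid made from diacylglycerol, had 34.2 ± 4.81 and 228 ± 85.2 CPM (SD, n = 3 each; -2.74, adjusted p = 0.000232). Prkcd, a protein kinase C, was the gene higher at E18 (0.55, adjusted p = 0.00308 in edgeR).

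The supply of PIP2 and the proteins known to bind TRPC channels stood nearer to even. Of 18 genes for PIP2 supply, 5 were lower and 2 were higher at E18, with a median log2 fold change of -0.02. Pitpnm3 and Cds1 were lower (-1.75 and -1.44, adjusted p = 0.000237 and 0.000324 in edgeR), and Pi4k2b and Pip5k1a were higher (1.32 and 0.61, adjusted p = 0.0138 and 0.00780). Of 11 binding proteins, 2 were lower and 2 were higher. The immunophilins Fkbp4 and Fkbp1a differed in direction (0.33 and -0.35, adjusted p = 0.0166 and 0.00898 in edgeR), and both calls were lost without E18 replicate 3 (0.0734 and 0.0591). Slc9a3r2 was lower (-0.59, adjusted p = 0.00994) and Rnf24 higher (0.55, adjusted p = 0.0332), the latter losing its call without any 1 of the samples except P5 replicate 8 (0.0572 to 0.108).

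**Figure D5:**
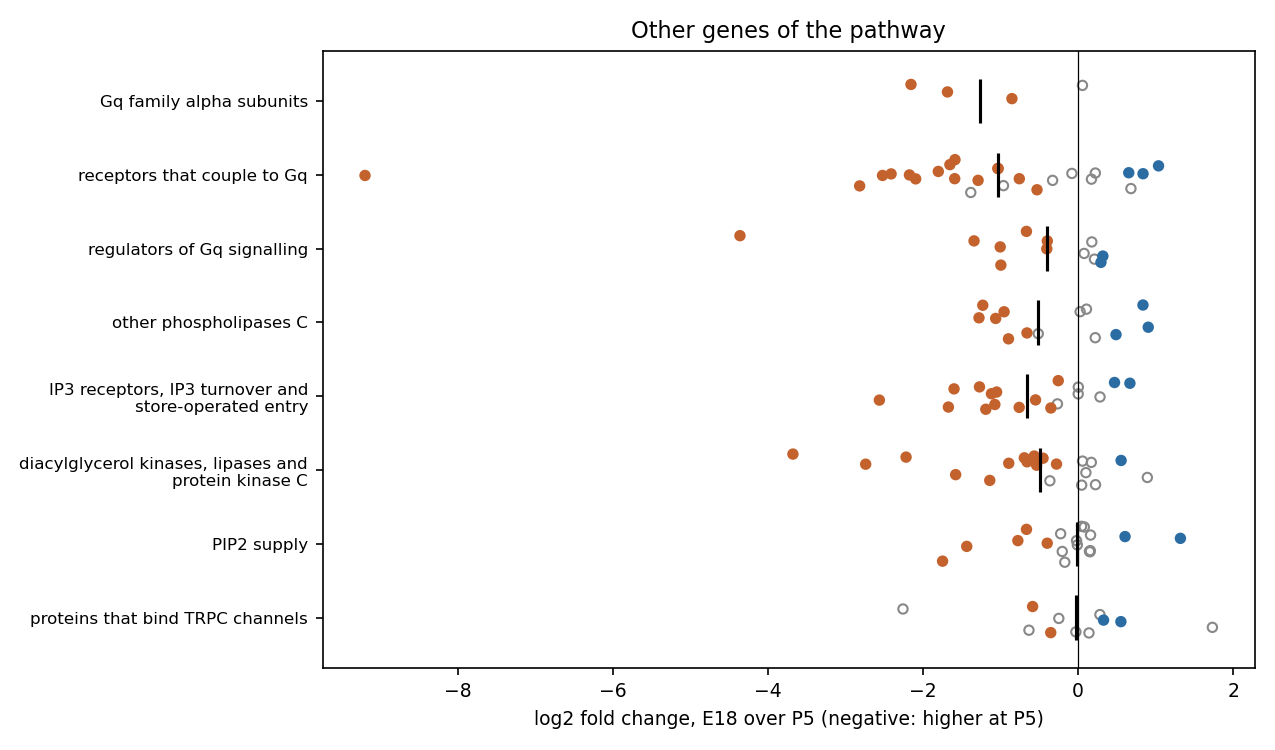
Each point is a gene of the pathway outside the 9 described, placed by its log2 fold change of E18 over P5 within its list. Filled points passed an adjusted p of 0.05, orange where higher at P5 and blue where higher at E18, open points did not, and vertical bars are list medians. Vertical scatter within a list carries no value. The point farthest left is Trhr, whose position rests on 5, 2 and 1 reads at E18. Filled points number 62 left and 15 right of 0.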

How the data were processed

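RNA-seq was read for 3 E18 and 3 P5 samples of immunopanned RGCs. The labels name polyA RNA, the protocol ribosomal RNA depletion. The authors aligned paired-end reads of 100 bases to mm10 with STAR 2.4.0. They used HT-seq 0.6.1 with RefSeq genes and deposited raw counts per gene. Strand setting and multi-mapping were not given in the sources used here. The labels list CASAVA 1.8.2 and edgeR. Columns of normalized counts (a signal scaled by the authors), log2 fold changes, p-values and a rank score were deposited too and not used. For E18 replicate 1 the column name adds the numbers 2 and 5, so it may be a pool. A figure legend also names sorting for Thy1, without saying for which samples.

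The raw counts went into edgeR 4.0.16 (R 4.3.3) for TMM scaling and the quasi-likelihood test, with filterByExpr at a minimum count of 10, Benjamini-Hochberg adjustment over 16449 genes and a threshold of 0.05. The script was checked on simulated counts. Standard errors are the size of the log2 fold change over the root of the F statistic. Replicates exceeded sampling noise (chi-square within an age of 32.1 to 149 per degree of freedom). Gene positions and merged exons are from GENCODE M21. Promoters are RefSeq's. The 9 genes and all lists were chosen with earlier results of these data known. Named were the 9 genes, Gnaq, Gna11, Opn4, Itpr1, Trpc2, the 2 widest calls per list and direction, and nearest profiles. Other settings tried were upper-quartile scaling, 2 other filters, the likelihood ratio and exact tests of edgeR, DESeq2 1.42.0, another gene length and leaving out each sample. Some genes of the lists are not reported here and were left out of the list counts and sums.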

Additional observations from a re-analysis of the deposited data

How the results depend on the processing

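For the 9 genes, the direction held in all 107 refits, and each log2 fold change moved by less than the SD between samples of 1 age. No gene of the 9 overlapped between the ages, so leaving out 1 sample could hardly reverse a direction. Leaving out 1 of 3 samples also moves a mean by less than the SD. Neither result is therefore a test of the differences. With each sample left out, the log2 fold change ranged from -2.85 to -2.60 for Trpc5, -2.16 to -2.00 for Plcb1, -1.98 to -1.74 for Trpc6, -2.09 to -1.62 for Trpc7, -2.02 to -1.32 for Plcb2, -0.80 to -0.55 for Plcb4, -0.65 to -0.57 for Trpc1, -0.44 to -0.27 for Trpc4 and 1.13 to 1.33 for Plcb3. Plcb2 could not be fitted with a minimum of 1 CPM in 3 samples. Genes past the threshold numbered 4575 to 8796 (2137 to 4135 higher at E18, 2438 to 4661 lower) when a sample was left out, against 6331 to 7634 over the other settings, and the lowest of each came without E18 replicate 3. In the pathway lists, genes higher at E18 numbered 9 (without E18 replicate 3) to 18, and genes lower 50 to 66. Of the 381 refits of single pathway genes, 24 lost the call and none changed sign. With the longest transcript as length, the level per kilobase at E18 and P5 was 8.00 and 12.2 for Trpc1, 1.19 and 1.49 for Trpc4, 0.321 and 2.14 for Trpc5, 1.42 and 5.12 for Trpc6, 7.81 and 32.6 for Plcb1, 8.91 and 3.74 for Plcb3 and 26.1 and 40.9 for Plcb4, and for Plcb2 at E18 0.0217. The shorter length raises every value by construction. No paired analysis was possible because no replicate number is shared between the ages. Depth limits Plcb2 and Trpc7 most.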

Other observations

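By the same profile measure over the 6 samples, the 2 nearest of 9720 genes were Kcnip4 (root mean square difference 0.0857) and Tmem56 (0.0918) for Trpc5, Map3k5 (0.135) and Lhfpl2 (0.151) for Trpc6, and Ttyh1 (0.118) next after Opn4 for Trpc7. Kcnip4, a calcium-binding subunit of potassium channels, averaged 12.3 CPM at E18 and 80.1 CPM at P5. For Trpc1 they were Zfp229 (0.0224) and 2610044O15Rik8 (0.0266), and for Trpc4 Purg (0.0501) and Sh3rf1 (0.0531). Among the enzymes, the nearest were Slc35f4 (0.061) and Frmpd4 (0.0862) for Plcb1, Ubxn2a (0.0257) and Pdss2 (0.0294) for Plcb4, and Sh2d3c (0.105) and Bnc2 (0.113) for Plcb3. Bnc2 averaged 92.6 CPM at E18 and 42.6 CPM at P5. These profiles mostly carry the difference between the ages, and they say nothing of shared function or control.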
